A study of Mus musculus with 12 samples.

Results

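The 8 genes described here encode enzymes of creatine, arginine, proline and glutamine metabolism. They were taken by symbol from a list that was chosen with earlier results of these data known. It held Gatm and Gamt for creatine, and Ass1 and Agmat for arginine and agmatine. Oat and Prodh stood for ornithine and proline, and Glul and Glud1 for glutamine and glutamate. All 8 were found among the 25553 genes of the table, and all 8 passed the filter on low values. Expression was measured by RNA sequencing of whole frozen kidney from 12 wild-type mice, 3 in each of 4 groups. Normoxic sham mice, labelled sham control, had neither preconditioning nor renal ischemia. Normoxic RIRI mice had renal ischemia and reperfusion injury (RIRI), in which both kidneys' pedicles were clamped through the abdomen for 45 min and the kidneys were taken 12 h after release. Preconditioned sham mice, also labelled sham control, had hypoxic preconditioning without the ischemia. It was given in a chamber at normal pressure whose oxygen was lowered to 8% over 20 min. Each session was longer than the last (2 h on the first day, then 4 h, then 8 h). Preconditioned RIRI mice had the same sessions and then the same injury. The labels give the genotype and batch number 1 for every mouse, but no strain, age or sex. Each kidney was sampled at 1 time after injury, and each library pools all cell types of the organ.

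The kidney's proximal tubule is a major site of several linked amino acid reactions. ASS1 and its partner ASL turn citrulline into arginine, GATM moves the amidino group of arginine onto glycine to give guanidinoacetate and ornithine, and GAMT, best known from liver, methylates guanidinoacetate to creatine. OAT and PRODH feed ornithine and proline into glutamate, GLUL makes glutamine from glutamate and ammonia, and GLUD1 releases ammonia from glutamate, which links this group to the kidney's handling of acid.

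Gatm lies on chromosome 2 from 122594467 to 122611303 on the minus strand of mm10, and Ass1 lies on the same chromosome from 31470207 to 31520672 on the plus strand. Gamt (chromosome 10, 80258151 to 80261012, minus strand), Agmat (chromosome 4, 141746672 to 141759263, plus strand) and Oat (chromosome 7, 132557478 to 132576398, minus strand) are each on a chromosome of their own among the 8. The same holds for Prodh (chromosome 16, 18060357 to 18090203, minus strand), Glul (chromosome 1, 153899944 to 153909723, plus strand) and Glud1 (chromosome 14, 34310727 to 34345265, plus strand). All are protein-coding genes of GENCODE M21. Glul was the 1 gene of the 8 whose exons overlapped those of other genes: 116 bases, or 3.5% of its exon bases, are shared with Teddm2 on the opposite strand, and 93 bases with Mir8114. No source used here says whether reads were counted by strand.

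The 250 bases before the RefSeq start site (GRCm38.p6) are shown for 3 of the genes, because their levels moved in 3 different ways: Gatm had a smaller injury difference in preconditioned mice, Ass1 had much the same value in both injury comparisons, and Glul was lower after injury in the preconditioned mice. The Gatm window is chr2:122611278-122611527 on the minus strand, the Ass1 window is chr2:31470020-31470269 on the plus strand, and the Glul window is chr1:153899679-153899928 on the plus strand. Capitals mark every match, on either strand, to the 7 motifs searched.
Gatm: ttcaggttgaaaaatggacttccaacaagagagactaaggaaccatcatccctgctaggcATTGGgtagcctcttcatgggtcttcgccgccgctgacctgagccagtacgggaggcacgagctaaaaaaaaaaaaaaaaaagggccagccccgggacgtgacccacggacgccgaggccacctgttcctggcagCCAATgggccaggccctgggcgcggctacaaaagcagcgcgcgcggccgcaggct
Ass1: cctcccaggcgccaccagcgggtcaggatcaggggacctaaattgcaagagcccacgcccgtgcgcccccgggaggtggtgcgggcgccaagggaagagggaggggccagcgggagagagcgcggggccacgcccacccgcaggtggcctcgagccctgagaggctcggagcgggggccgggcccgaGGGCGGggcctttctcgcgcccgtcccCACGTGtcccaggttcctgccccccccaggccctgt
Glul: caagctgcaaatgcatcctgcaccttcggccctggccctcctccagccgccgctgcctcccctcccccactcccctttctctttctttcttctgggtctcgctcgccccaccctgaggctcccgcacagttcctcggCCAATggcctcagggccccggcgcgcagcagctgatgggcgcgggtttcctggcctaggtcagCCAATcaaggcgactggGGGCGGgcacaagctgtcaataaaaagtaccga
The motifs, searched on both strands, were CAAAGTC (part of an HNF4 element), GTTAAT (part of an HNF1 site), TGANTCA (AP-1), CACGTG (an E-box), TGACGTC (part of a CRE), CCAAT (the box of that name) and GGGCGG (a GC box). The last 2 were added after the first search. Gatm held CCAAT at -55 from the start and, on the other strand, at -190. Ass1 held CACGTG at -36 and GGGCGG at -63, and Glul held CCAAT at -113 and -50 and GGGCGG at -33. In the 9 windows of the 8 genes (Agmat has 2), the letters of the HNF4, HNF1, AP-1 and CRE motifs were not found. Among all 32851 mouse promoter windows of the same length, 3.84% held the HNF4 letters, 6.43% those of HNF1, 6.75% AP-1, 6.02% the E-box, 2.78% the CRE, 33.8% the CCAAT box and 32.7% the GC box. These matches describe the letters and were not tested against expression.

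Levels are given as FPKM, the deposited fragments per kilobase of gene and library depth, and differences as log2 on the scale of FPKM + 1 with their standard error. The standard error and interval of a gene come from the fit to all groups, not from the spread of the compared groups alone. A difference is called at an adjusted p under 0.05 over the 12357 genes tested with limma. Recovered depth was even, at 33096854 to 35707662 reads per library. The tissue label fits its markers: all 20 proximal tubule markers listed were detected in every group, while the summed FPKM of skeletal muscle markers was at most 1.33 and that of adrenal markers at most 0.928. Xist was at most 0.00661 FPKM in all 12 libraries and the Y-linked gene Ddx3y at least 4.94. Markers of cell types moved with injury. All 20 proximal tubule markers were lower in normoxic RIRI than in normoxic sham, with a median log2 difference of -1.58, and all 20 were lower in preconditioned RIRI than in preconditioned sham, with a median of -0.84. Between the injured groups, 12 of the 20 were higher in the preconditioned one. Their summed FPKM ran from 51845 to 56998 in normoxic sham, 20185 to 26249.6 in normoxic RIRI, 36475 to 41361 in preconditioned sham and 18263 to 23756 in preconditioned RIRI, so that the injured groups overlapped and preconditioned sham lay below normoxic sham. Without Kap, the most abundant, left out after seeing the data, the sum ran from 11069 to 11754 in normoxic sham, 3933 to 4569.8 in normoxic RIRI, 10998 to 11189.7 in preconditioned sham and 5022 to 5823 in preconditioned RIRI. Summed FPKM of 8 tubular injury markers was 576 to 602, 13354 to 16873, 704 to 829.7 and 8679 to 10005 in the same order. In bulk kidney, fewer cells of a type and less RNA per cell cannot be told apart, and the part of these markers in the results was not tested. In both injured groups, replicate 2 had the highest or the lowest value of some marker sums. Such ranks do not by themselves set replicate 2 apart from the other mice. Its summed neutrophil markers were the highest of normoxic RIRI (293 FPKM against 132 and 206) and the lowest of preconditioned RIRI (23.6 against 111 and 46.6), and its summed red blood cell markers were the highest of preconditioned RIRI (2260.2 against 477 and 1277). Without either library, no called difference of the 8 enzymes lost its call or moved by over 1.5 times, while several values not called moved more, some of which are given with their gene.

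Among the 8 enzymes, 6 fell, 1 rose and 1 was not called in normoxic RIRI against normoxic sham. Of all genes tested, 30.1% were called lower, 41.6% higher and 71.7% either way in that comparison, so a count of 7 called genes is near the background of the table. The mice of the 2 groups did not overlap for 7 of the 8, and for 74.3% of all genes. The median log2 difference of the 8 was -1.23, beside 0.10 over all genes tested. Rescaling the libraries by median ratios moved the median of all genes by -0.10 and the share of calls that were higher from 58.1% to 49.9%. It moved that share from 58.7% to 48.2% between the injured groups, from 44.2% to 23.9% between the sham groups and from 63% to 49.4% in the preconditioned injury comparison. The plot of FPKM by mouse shows the 4 groups of each gene.

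**Figure D1:**
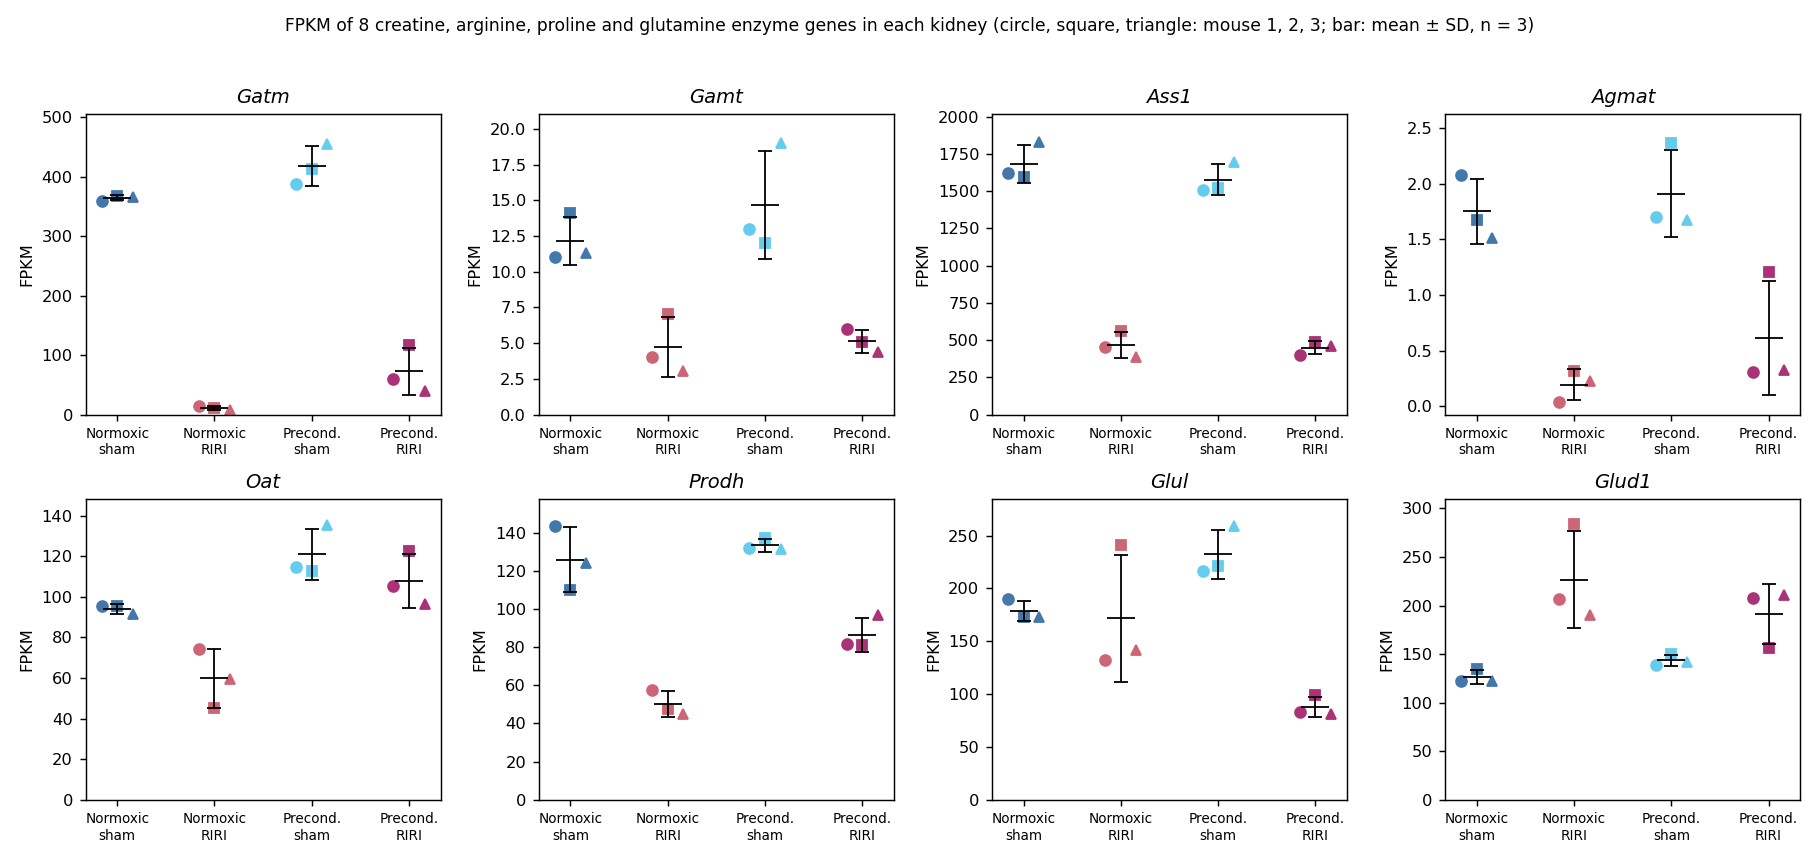
FPKM of each of the 8 enzyme genes (vertical axes, one scale per panel) in the 4 groups (horizontal axes). Circles, squares and triangles are mice 1, 2 and 3, and bars are the mean ± SD of 3 mice. Gatm falls to near the bottom of its panel in normoxic RIRI, Glul is lowest in preconditioned RIRI, and Glud1 is lowest in the sham groups.

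Gatm, the first enzyme of creatine synthesis, carried the largest injury differences of the 8. Its FPKM in mice 1, 2 and 3 was 359.8, 368 and 366 in normoxic sham and 14.3, 10.6 and 7.39 in normoxic RIRI. In preconditioned sham it was 388, 414 and 454, and in preconditioned RIRI it was 60.5, 117 and 39.9. No injured kidney reached the level of any sham kidney, and the lowest preconditioned RIRI kidney was above the highest normoxic RIRI kidney. The mean of normoxic RIRI (10.7 ± 3.44 FPKM, SD, n = 3) was 33.9-fold below normoxic sham, a log2 difference of -5.00 ± 0.31 (limma adjusted p = 6.14e-08). No other of the 12357 genes tested had a lower log2 value in that comparison. By mean FPKM Gatm ranked 163 among those genes in normoxic sham kidneys, 5062 in injured normoxic ones and 985 in preconditioned RIRI. In preconditioned mice the injury difference was -2.65 ± 0.31 (limma adjusted p = 3.09e-05), and the mean was 5.78-fold below preconditioned sham. Preconditioned RIRI kidneys held 6.74 times the FPKM of normoxic RIRI kidneys (log2 difference 2.55 ± 0.31, limma adjusted p = 0.000118). Without mouse 2 of preconditioned RIRI, the highest of its group, that difference was 2.14 with an adjusted p of 0.000121. The sham groups differed by 0.20 ± 0.31, with a 95% interval from -0.47 to 0.86, although all 3 preconditioned sham kidneys were above all 3 normoxic ones. That error and interval come from the fit to all groups and include the spread of the injured kidneys. They do not give the spread of the shams alone. The order of levels was thus both shams, then preconditioned RIRI, then normoxic RIRI, with only the shams not separated by the test.

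Gamt, which completes creatine synthesis, was at a far lower level than Gatm per length of gene in sham kidney. Its FPKM was 11.0, 14.1 and 11.3 in normoxic sham, 4.05, 7.07 and 3.08 in normoxic RIRI, 13.0, 12.0 and 19.0 in preconditioned sham and 5.97, 5.05 and 4.37 in preconditioned RIRI. Both injured groups lay below both sham groups with no overlap, and the injured groups overlapped each other. Summed FPKM of 5 liver markers ran from 19.0 to 28.8, 11.2 to 22.9, 36.4 to 46.0 and 28.7 to 42.1 in the same order of groups, and its part in these values was not tested. Serpina1a was the largest of the 5 in every library, while Alb was at most 4.95 FPKM and Cyp3a11 at most 0.0582. Gamt fell by 1.25 ± 0.23 on the log2 scale after injury in normoxic mice (limma adjusted p = 0.000379) and by 1.34 ± 0.23 in preconditioned mice (limma adjusted p = 0.000479). The injured groups differed by 0.15 ± 0.23, with an interval from -0.35 to 0.65, and by 0.43 without mouse 2 of normoxic RIRI, still not called. The injury effects differed by -0.09 ± 0.32 (limma adjusted p = 0.871), and by 0.19 without that mouse. The percent of the sham mean left after injury was 39.0% ± 17.1 in normoxic and 34.9% ± 5.49 in preconditioned mice for Gamt, against 2.95% ± 0.945 and 17.3% ± 9.54 for Gatm (SD, n = 3).

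**Figure D2:**
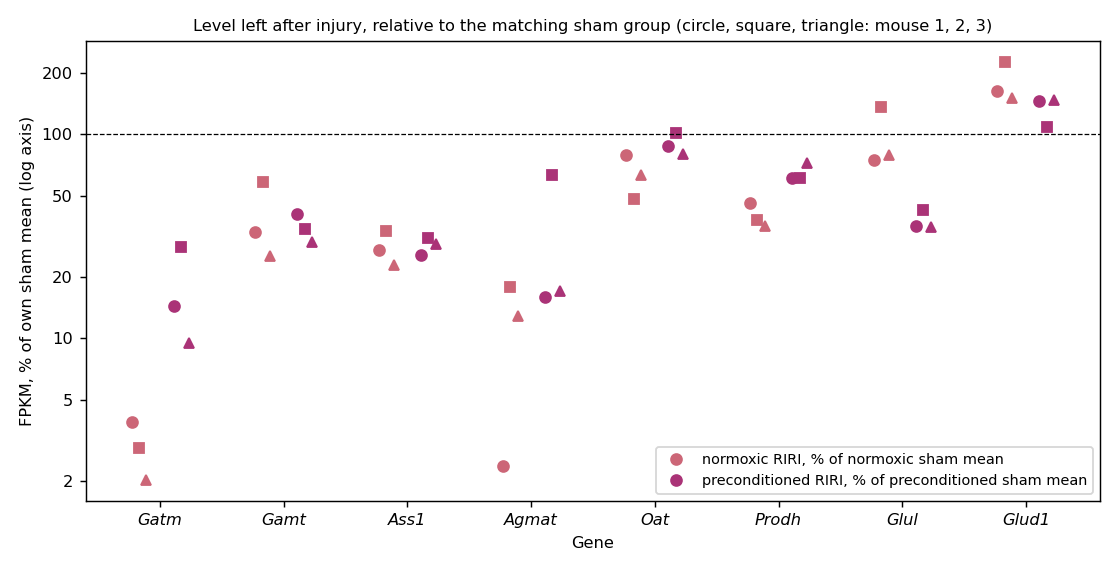
FPKM of each injured kidney as a percent of the mean of its own sham group (vertical log axis) for the 8 genes (horizontal axis), normoxic and preconditioned; the dashed line is 100%. Gatm is lowest in normoxic RIRI, with a mean of 2.95%, and both Glud1 means, 179.7% and 133%, lie above the line.

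Ass1, which makes argininosuccinate in the first step from citrulline to arginine, was the most abundant of the 8 per length of gene and ranked 21 among all genes tested in both sham groups. Its FPKM was 1623, 1591 and 1830.2 in normoxic sham and 456, 562 and 384 in normoxic RIRI. In preconditioned sham it was 1507, 1523 and 1698, and in preconditioned RIRI it was 402, 488 and 458. The injured kidneys were all below every sham kidney, and within the injured and within the sham kidneys the 2 conditions overlapped. Ass1 fell by 1.86 ± 0.13 on the log2 scale in normoxic mice (limma adjusted p = 1.3e-07) and by 1.81 ± 0.13 in preconditioned mice (limma adjusted p = 8.7e-07), a 3.60-fold and a 3.51-fold lower mean FPKM. The injured groups differed by -0.04 ± 0.13, with an interval from -0.32 to 0.23, and by 0.096 without mouse 2 of normoxic RIRI. The preconditioned injury difference exceeded the normoxic one by 0.05 ± 0.18, with an interval from -0.34 to 0.44, and leaving out single mice gave -0.0846 to 0.19. Ass1 after injury still ranked 121 in normoxic and 129 in preconditioned kidneys.

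Agmat, named for splitting agmatine into putrescine and urea, was the lowest of the 8 and close to the filter. Its FPKM was 2.08, 1.67 and 1.51 in normoxic sham (100, 84 and 77 recovered reads) and 0.0414, 0.314 and 0.225 in normoxic RIRI (2, 15 and 11 reads). In preconditioned sham it was 1.70, 2.36 and 1.67 (83, 115 and 79 reads), and in preconditioned RIRI 0.305, 1.21 and 0.325 (15, 61 and 16 reads). Every injured kidney was below every sham kidney, and mouse 2 of preconditioned RIRI stood well above the other two. Agmat fell by 1.21 ± 0.19 on the log2 scale in normoxic mice (limma adjusted p = 0.000116) and by 0.89 ± 0.19 in preconditioned mice (limma adjusted p = 0.00205). The size depends on the pseudocount at such low values: with 0.1 in place of 1 the normoxic difference was -2.78, with 5 it was -0.38, and with voom on recovered reads it was -3.46, each still called. The injured groups differed by 0.40 ± 0.19 (interval -0.019 to 0.81, limma adjusted p = 0.113), which was not called under any alternative and was 0.15 without mouse 2 of preconditioned RIRI. The injury effects differed by 0.32 ± 0.27 (limma adjusted p = 0.415), and by 0.068 without that mouse. With a filter at FPKM 5 Agmat is not tested.

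Oat, which turns ornithine into a precursor of glutamate and proline, was the 1 gene of the 8 that fell in normoxic injury and was not called in preconditioned injury. Its FPKM was 95.5, 95.2 and 91.3 in normoxic sham, 74.3, 45.4 and 59.6 in normoxic RIRI, 114.5, 113 and 135 in preconditioned sham and 105, 122 and 96.2 in preconditioned RIRI. Every normoxic RIRI kidney was below every kidney of the other 3 groups, while preconditioned RIRI lay above normoxic sham and overlapped preconditioned sham. Oat fell by 0.67 ± 0.15 on the log2 scale in normoxic mice (limma adjusted p = 0.0016), and the preconditioned difference was -0.16 ± 0.15 (interval -0.49 to 0.17, limma adjusted p = 0.382). Preconditioned RIRI was higher than normoxic RIRI by 0.86 ± 0.15 (limma adjusted p = 0.00104). The difference between the injury effects themselves was 0.51 ± 0.21 (limma adjusted p = 0.101), so the test does not separate them. Leaving out single mice gave 0.33 to 0.68: the lowest, not called, came without mouse 2 of normoxic RIRI, and the highest, with an adjusted p of 0.0164, without mouse 1 of that group. Oat also had the lowest unadjusted p of the 8 between the sham groups: 0.35 ± 0.15 higher in preconditioned sham, unadjusted p = 0.037 and adjusted p = 0.319 with limma.

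Prodh, the mitochondrial enzyme that opens proline breakdown, fell in both injury comparisons and by less in preconditioned mice. Its FPKM was 144, 109.95 and 124 in normoxic sham and 57.6, 47.6 and 44.7 in normoxic RIRI. In preconditioned sham it was 132, 137 and 131, and in preconditioned RIRI it was 81.4, 81.0 and 96.8. The groups formed 3 levels without overlap: both shams on top, preconditioned RIRI between, and normoxic RIRI lowest. Prodh fell by 1.31 ± 0.12 on the log2 scale in normoxic mice (limma adjusted p = 9.89e-07) and by 0.63 ± 0.12 in preconditioned mice (limma adjusted p = 0.000807). The difference between those effects was 0.69 ± 0.16 (interval 0.33 to 1.05, limma adjusted p = 0.0118), and the injured groups differed by 0.78 ± 0.12 (limma adjusted p = 0.000389). The level left was 39.7% ± 5.39 of sham in normoxic and 64.8% ± 6.75 in preconditioned kidneys (SD, n = 3). The shams differed by 0.09 ± 0.12, with an interval from -0.16 to 0.34.

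Glul, glutamine synthetase, ran opposite to Gatm, Oat and Prodh between the injured groups. Its FPKM was 189.7, 173 and 173 in normoxic sham, 133, 241 and 141 in normoxic RIRI, 217, 221 and 259 in preconditioned sham and 82.8, 98.8 and 81.4 in preconditioned RIRI. All 3 preconditioned RIRI kidneys were below every other kidney, and normoxic RIRI straddled normoxic sham, with mouse 2 above it and mice 1 and 3 under it. In normoxic mice the injury difference was -0.11 ± 0.18 (interval -0.51 to 0.29, limma adjusted p = 0.612). It was -0.38 with an adjusted p of 0.00719 without mouse 2 of normoxic RIRI, the library with the highest neutrophil markers, and its sign changed under quantile normalization. In preconditioned mice Glul fell by 1.40 ± 0.18 (limma adjusted p = 7.83e-05), to a mean 2.65-fold under preconditioned sham. Preconditioned RIRI was lower than normoxic RIRI by a log2 difference of -0.91 ± 0.18 (limma adjusted p = 0.0024), and the injury effects differed by -1.29 ± 0.26 (interval -1.86 to -0.72, limma adjusted p = 0.00571). Without mouse 2 of normoxic RIRI these values were -0.64 and -1.02, both still called. Between the shams Glul was 0.37 ± 0.18 higher after preconditioning, without overlap of the mice but not called (interval -0.027 to 0.78, limma adjusted p = 0.392).

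Glud1, glutamate dehydrogenase, was the 1 gene of the 8 that was higher after injury. Its FPKM was 123, 134 and 122 in normoxic sham, 206, 284 and 190.3 in normoxic RIRI, 139, 150.1 and 142 in preconditioned sham and 208, 156 and 211 in preconditioned RIRI. Every injured kidney was above every sham kidney, and the injured groups overlapped. Glud1 rose by 0.82 ± 0.14 on the log2 scale in normoxic mice (limma adjusted p = 0.000289), to a mean of 179.7% ± 39.6 of sham (SD, n = 3). In preconditioned mice it was higher by 0.40 ± 0.14 (interval 0.08 to 0.72, limma adjusted p = 0.0359). That call sits near the threshold. It was lost with median-ratio rescaling (0.28, limma adjusted p = 0.169), with no filter (0.40, limma adjusted p = 0.0828) and with the replicate block (0.40, limma adjusted p = 0.0551). It was also lost without any 1 mouse of the 2 preconditioned groups except mouse 2 of preconditioned RIRI, with limma adjusted p from 0.0585 to 0.125. Without mouse 2 of preconditioned RIRI it was 0.54. The injured groups differed by -0.23 ± 0.14 (interval -0.55 to 0.083, limma adjusted p = 0.214), and by -0.062 without mouse 2 of normoxic RIRI. The injury effects differed by -0.42 ± 0.20 (limma adjusted p = 0.154), and by -0.25 without that mouse.

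**Figure D3:**
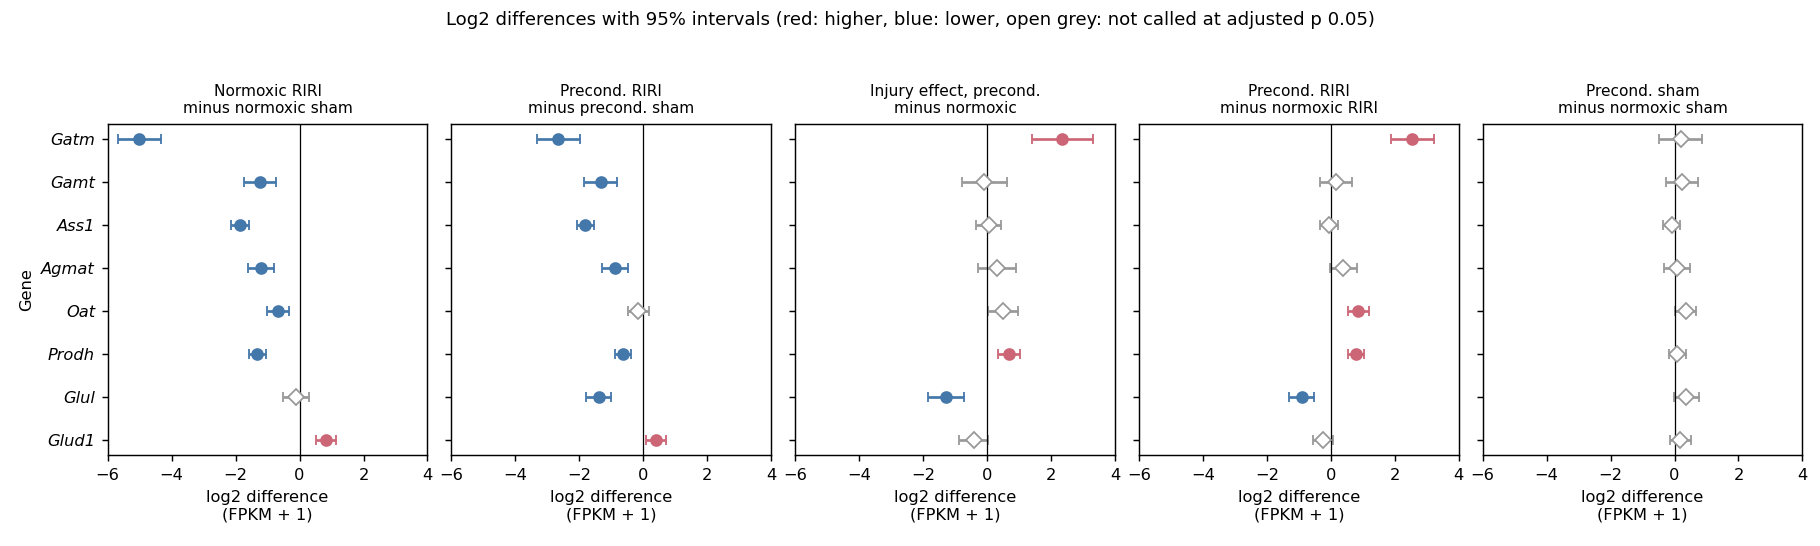
Log2 difference of FPKM + 1 (horizontal axes) for the 8 genes (vertical axis) in each comparison, with 95% intervals from the fit to all 12 libraries. The Gatm interval in normoxic injury, -5.67 to -4.33, lies far from the other 7 genes, and in the comparison of shams all 8 values lie between -0.09 and 0.37.

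Set side by side, preconditioned RIRI against preconditioned sham also had 6 genes that fell, 1 that rose and 1 not called, where 19.4% of all genes were called lower, 33% higher and 52.4% either way. The mice did not overlap for 7 of the 8, and for 63.3% of all genes. The median log2 difference of the 8 was -1.11, beside 0.10 over all genes. The single gene that rose, Glud1, is the call described above as lost under other settings. Between the injured groups, 3 of the 8 were higher in preconditioned kidneys (Gatm, Oat and Prodh), 1 was lower (Glul) and 4 were not called, where 24.7% of all genes were called higher, 17.4% lower and 42.1% either way. The normoxic RIRI libraries enter both that comparison and the normoxic injury comparison. The share called, 4 of 8, is near the background of the table, and the mice did not overlap for 4 of the 8 and 47.7% of all genes. The median of the 8 was 0.27, beside 0.06. In the sham comparison none of the 8 was called, where 0.421% of all genes were, and 1 of the 8, Oat, had an unadjusted p under 0.05 in limma. None was called under any alternative, where the lowest limma adjusted p was 0.0586 for Oat and 0.0594 for Glul. Over all genes, 303 in place of 52 were called between the shams in the fit of only the groups compared. The mice did not overlap for Gatm, Oat, Glul and Glud1, all higher in preconditioned sham, and 29.4% of all genes did not overlap in that comparison. The injury effects differed for 3 of the 8, with Gatm and Prodh higher and Glul lower in preconditioned mice, where 23.9% of all genes were called, 11.3% higher and 12.6% lower.

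Around these enzymes, 48 other genes of the same pathways were listed, of which 35 passed the filter. Of the 35, 19 rose and 11 fell in normoxic injury (85.7% called, beside 71.7% of all genes), and 16 rose and 10 fell in preconditioned injury (74.3%, beside 52.4%). Their median log2 differences were 0.36 and 0.18, beside 0.10 over all genes in both. The counts of the single lists, of 3 to 11 tested genes each, stand against the same shares of all genes. Between the injured groups 10 were higher and 6 lower in preconditioned kidneys (45.7%, beside 42.1%). In the sham comparison 1 of 35, Slc38a3, was higher (2.86%, beside 0.421%). In the difference of injury effects 4 of 35 were called higher and 5 lower (25.7%, beside 23.9%), a share near the background of the table. Named here are the genes called in normoxic injury with a log2 difference of at least 1 in size and those whose injury effects differed; Slc6a8 and Ckmt1 fall outside that rule and were chosen after their values were seen. The plot of injury effects without and with preconditioning shows the 8 enzymes and these genes together.

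**Figure D4:**
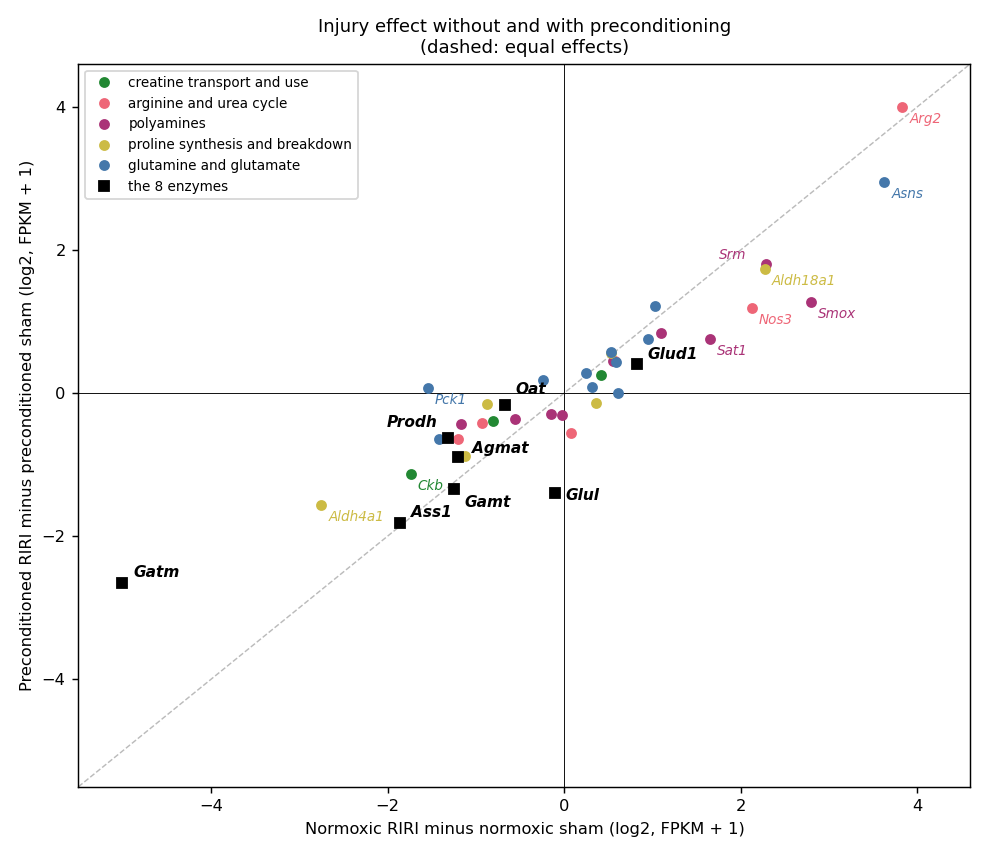
Log2 injury difference in normoxic mice (horizontal axis) against that in preconditioned mice (vertical axis), both on FPKM + 1, for the 8 enzymes (black squares) and the 35 tested pathway genes (circles, coloured by list). The 2 axes share no library; the dashed line marks equal effects. Gatm lies above the line at -5.00 and -2.65, Glul lies below it at -0.11 and -1.40, and Ass1 lies on it at -1.86 and -1.81.

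In creatine handling, 3 genes were tested: 2 fell and 1 rose in normoxic injury. Ckb, the brain-type creatine kinase, fell by 1.74 ± 0.17 on the log2 scale (limma adjusted p = 1.98e-06), from a mean of 82.2 ± 3.16 FPKM to 24.6 ± 6.997, and in preconditioned injury by 1.13. The mitochondrial kinase Ckmt1 fell by 0.80 and 0.39 in the same order. The creatine transporter Slc6a8 rose by 0.42 ± 0.10 in normoxic injury (limma adjusted p = 0.00266) and differed by 0.25 in preconditioned injury, which was not called (limma adjusted p = 0.0545). Slc6a8 was thus above its sham mean in both comparisons, and both kinases were below theirs.

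Among 6 tested genes of the arginine and urea cycle list, 3 rose and 2 fell in normoxic injury, and 3 rose and 3 fell in preconditioned injury. Asl, which releases arginine after the Ass1 step, fell by 1.21 ± 0.16 in normoxic mice (limma adjusted p = 2.56e-05) and by 0.64 ± 0.16 in preconditioned mice (limma adjusted p = 0.00474), and was higher by 0.61 in preconditioned than in normoxic RIRI (limma adjusted p = 0.00918). Ass1 was not called in that last comparison, and the difference between the 2 genes was not tested. Arg2, the mitochondrial arginase, rose by 3.83 ± 0.25 in normoxic mice (limma adjusted p = 1.01e-07), from 2.48 ± 0.608 to 49.9 ± 18.2 FPKM. It rose by 4.00 ± 0.25 in preconditioned mice, to 57.1 ± 16.5. Nos3, the endothelial nitric oxide synthase, rose by 2.12 and 1.19, and its injury effects differed by -0.93 (limma adjusted p = 0.00937). Of 6 endothelial markers, 4 were higher in normoxic injury (median 0.66), beside 41.6% of all genes. In preconditioned injury 3 were higher and 1 lower (median 0.24), beside 33% and 19.4% of all genes. In the difference of injury effects 3 were called lower (median -0.41), beside 12.6% of all genes. Their summed FPKM was 122 to 137 in normoxic sham, 168 to 208 in normoxic RIRI, 129 to 138 in preconditioned sham and 144 to 153 in preconditioned RIRI, and their part in the Nos3 values was not tested. Ddah1, which clears methylated arginines, fell by 0.93 and 0.42, and its injury effects differed by 0.52 (limma adjusted p = 0.00753).

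Of 9 tested polyamine genes, 5 rose and 2 fell in each injury comparison. Srm, spermidine synthase, rose by 2.29 ± 0.13 in normoxic mice (limma adjusted p = 4.73e-08) and 1.80 in preconditioned mice. Smox, spermine oxidase, rose by 2.80 ± 0.18 (limma adjusted p = 1.05e-07) and 1.27, and its injury effects differed by -1.52 (limma adjusted p = 0.00254). Sat1, which acetylates polyamines for breakdown, rose by 1.65 and 0.76, and its injury effects differed by -0.89 (limma adjusted p = 0.0138). Amd1, which supplies the aminopropyl groups for spermidine and spermine, rose by 1.10 and 0.84. Odc1, which makes putrescine from ornithine, fell by 1.17 ± 0.22 in normoxic mice (limma adjusted p = 0.000444), from 597 ± 28.8 to 271 ± 68.4 FPKM. Its preconditioned difference of -0.43 was not called (limma adjusted p = 0.121). Its preconditioned sham level, 331 ± 85.4 FPKM, was not called against normoxic sham (log2 difference -0.88, limma adjusted p = 0.124). Even so, every preconditioned sham kidney was below every normoxic one. The injured groups overlapped, with means of 242 FPKM in preconditioned and 271 in normoxic RIRI (limma adjusted p = 0.63).

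Proline genes split by direction. Of 6 tested, 2 rose and 3 fell in normoxic injury. Aldh18a1, the first enzyme of proline synthesis from glutamate, rose by 2.27 ± 0.16 (limma adjusted p = 1.58e-07), from 0.962 to 8.67 FPKM. Aldh4a1, which follows Prodh in proline breakdown, fell by 2.75 ± 0.13 (limma adjusted p = 1.19e-08), from 135 ± 3.41 to 19.3 ± 3.13 FPKM. In preconditioned mice Aldh4a1 fell by 1.56 ± 0.13, and the injury effects differed by 1.19 ± 0.19 (limma adjusted p = 0.00185), the same sign as for Prodh. Prodh2, which acts on hydroxyproline, fell by 1.12 and 0.89. Pycrl, a reductase of the last step of synthesis, fell by 0.87 in normoxic mice (limma adjusted p = 0.000301) and was not called in preconditioned mice (-0.15, limma adjusted p = 0.439), and its injury effects differed by 0.72 (limma adjusted p = 0.0337).

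Of 11 tested glutamine and glutamate genes, 8 rose and 2 fell in normoxic injury, and 6 rose and 1 fell in preconditioned injury. Asns, which uses glutamine to make asparagine, rose by 3.62 ± 0.14 (limma adjusted p = 2.16e-09), from 1.75 ± 0.233 to 32.9 ± 3.28 FPKM, and by 2.95 in preconditioned mice. Its injury effects differed by -0.68 (limma adjusted p = 0.0257). Got1, the cytosolic aspartate transaminase, rose by 0.61 in normoxic mice, was not called in preconditioned mice (limma adjusted p = 0.998), and had injury effects that differed by -0.61 (limma adjusted p = 0.0131). Gclc, which starts glutathione synthesis, rose by 1.03 and 1.21 in the same order. Pck1, which takes the carbon of glutamine toward glucose, fell by 1.54 ± 0.29 in normoxic mice (limma adjusted p = 0.000469) and differed by 0.07 in preconditioned mice, which was not called (limma adjusted p = 0.857). Its injury effects differed by 1.61 (limma adjusted p = 0.0166). The glutamine transporter Slc38a3 was at 7.93, 10.5 and 8.03 FPKM in normoxic sham, 2.23, 4.41 and 1.78 in normoxic RIRI, 20.9, 19.5 and 21.8 in preconditioned sham and 14.2, 11.2 and 13.5 in preconditioned RIRI. It was higher by 1.15 ± 0.20 in preconditioned than in normoxic sham (limma adjusted p = 0.0382). That call was lost without any single sham library. It was also lost with a pseudocount of 0.1, no filter, either scaling or the replicate block. Slc38a3 and Glul thus had their highest group means in preconditioned sham, and in preconditioned RIRI Slc38a3 stayed above normoxic sham while Glul lay below it.

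The pattern of each enzyme over the 12 libraries was compared with that of every gene tested, after setting each gene's normoxic sham mean to 0 on the log2 scale, and the 2 genes with the smallest root mean square difference were named. Nearest to Gatm were Acmsd (0.26) and Hsd3b2 (0.40), and nearest to Ass1 were Fbp1 (0.18) and Itih2 (0.20). Gamt was nearest to the organic anion transporter gene Slc22a8 (0.19) and the amino acid transporter gene Slc7a8 (0.23), and Agmat to Ctdspl (0.17) and Tmem178 (0.17). Oat was nearest to Mpi (0.11) and Sema4a (0.11), Prodh to Shpk (0.10) and Hpn (0.11), Glul to Ypel3 (0.28) and Bcar3 (0.30), and Glud1 to Ptpn21 (0.098) and Usp27x (0.11). Within the 8, Agmat and Prodh were closest (0.31), a value that shrinks with the low level of Agmat, and Gatm and Glud1 were farthest apart (3.32). These values describe the 12 libraries and share their depth and groups.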

How the data were processed

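RNA was sequenced from kidneys of 12 mice, which the series design describes as 3 per group. Per the labels, libraries were made from TRIzol total RNA with a VAHTS Universal V10 kit and run on a DNBSEQ-T7. The authors deposited FPKM per gene symbol for all 12 libraries. The submitters' processing notes list mm10, HTSeq and DESeq2, without versions or roles. Neither an aligner nor an annotation is given in the sources used here, and the proteomic data were not analysed here.

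A gene entered the test if 3 or more of the 12 libraries had an FPKM of 1 or above (12357 genes). The test was limma 3.58.1 in R 4.3.3, applied to log2(FPKM + 1) as 1 fit of 4 group means with trended prior variance. Adjusted p is Benjamini-Hochberg over all genes tested, and genes were called under 0.05. The difference between injury effects is the contrast of the preconditioned minus the normoxic injury difference. A log2 difference on FPKM + 1 understates changes of low genes. Steps between FPKM values were used to recover reads, and all 25553 genes gave whole reads within 0.01 read, with totals of 33096854 to 35707662. For genes detected in few libraries the recovered number may be a whole fraction of the true one. Of 66 pairs of libraries, 0 shared an equal FPKM above 0. The fit was also run on simulated data with independent noise and far fewer changed genes than were called here. That run cannot show how the calls depend on the scaling of these libraries.

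The 8 enzymes and the lists were chosen with earlier results of these data known. Positions come from GENCODE M21 and promoters from RefSeq GRCm38.p6. The 8 enzymes are all described. Of the pathway lists, genes called in normoxic injury with a log2 difference of at least 1 in size, and genes whose injury effects differed, are named. The nearest genes are the 2 of smallest distance, passing over predicted genes, clones and pseudogenes. Alternatives were pseudocounts of 0.1 and 5, no filter and a filter at FPKM 5, median-ratio and quantile scaling, fits restricted to the compared groups, no trend, voom on recovered reads, the replicate number as a block and leaving out each library. Leaving out replicate 2 of both injured groups, and the proximal tubule sum without Kap, were added after seeing the data.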

Additional observations from a re-analysis of the deposited data

Results flagged for a closer look

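The injury effect differed between preconditioned and normoxic mice, by the test of the difference itself, for 3 of the 8 enzymes. In that test 23.9% of all genes were called. For Gatm the preconditioned minus normoxic difference was 2.35 on the log2 scale (limma adjusted p = 0.00363), and it was 1.94 without mouse 2 of preconditioned RIRI. For Prodh it was 0.69 (limma adjusted p = 0.0118). For Glul it was -1.29 (limma adjusted p = 0.00571), and it was -1.02 without mouse 2 of normoxic RIRI. Each kept its direction and its call under all 22 alternatives tried. Summed tubular injury markers, given with the report, did not overlap between the 2 injured groups, and Spp1 was the largest part of that sum. Of the 8 markers taken singly, 6 were called lower in preconditioned than in normoxic RIRI and 2 were not called. Havcr1 overlapped, at 216, 106 and 470 FPKM in normoxic RIRI and 673, 127 and 295 in preconditioned RIRI. Summed proximal tubule markers overlapped with Kap and did not without it. The part of either in these values was not tested.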

How the results depend on the processing

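The 8 enzymes in 5 comparisons gave 40 results, of which 21 were called. Over 370 alternatives of the called results, 362 kept their call and direction, 8 lost the call, all of Glud1 in preconditioned injury, and 0 reversed. Of 337 alternatives of results not called, 3 became called and 18 changed sign. With no filter, median-ratio rescaling or the replicate block, the number of enzymes called higher in preconditioned injury was 0 in place of 1, and leaving out single libraries gave 0 to 1. The number of pathway genes called between the shams was 0 in place of 1 with a pseudocount of 0.1, no filter, either scaling or the replicate block, 0 without any single library, and 2 in the fit of only the groups compared.

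Sign changes were all in results not called. Quantile normalization gave 0.012 for Glul in normoxic injury and -0.085 for Ass1 in the difference of injury effects. Leaving out single libraries gave ranges of -0.38 to 0.0498 for Glul and, in the difference of injury effects, -0.0846 to 0.19 for Ass1 and -0.30 to 0.19 for Gamt. Between the injured groups the ranges were -0.18 to 0.10 for Ass1 and -0.067 to 0.43 for Gamt. Between the shams they were -1.305e-06 to 0.19 for Prodh and -0.0297 to 0.16 for Agmat. Without replicate 2 of both injured groups, the difference between them was 0.034 for Ass1 and 0.078 for Glud1, and the difference of injury effects was 0.20 for Gamt. The cause was not tested.

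Over all genes, calls between the shams went from 52 to 303 in the fit of only the groups compared, to 31 and 79 with pseudocounts of 0.1 and 5, and to as few as 23 without replicate 2 or 3 of normoxic sham. Calls between the injured groups went from 5203 to 3373 in the fit of only the groups compared. Correlations of the deviations of same-numbered mice had both signs: 4 of 18 exceeded 0.1 (range -0.25 to 0.17). They were 0.13, 0.034 and 0.17 between the normoxic groups, and -0.25, -0.23 and -0.079 between the injured groups. Of 36 best matches, each among 3 mice, 16 were with their own number. With the replicate block, 7 enzymes were called in normoxic injury, 4 between the injured groups, 0 between the shams, 6 in preconditioned injury and 3 in the difference of injury effects. Of all 12357 genes tested, 8819, 5057, 35, 6331 and 2700 were called in the same order. Agmat, at 2 to 15 reads in normoxic RIRI, is the value most limited by depth.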
